A study of Mus musculus with 3 samples.

Results

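The 8 tubulin genes Tuba1a, Tuba1b, Tuba1c, Tuba4a, Tubb5, Tubb4b, Tubb2a and Tubb6 were followed through the T, NK and B cells of mouse spleen, out of 56980 genes listed. Spleens of wild-type (WT) mice were made into cell suspensions and profiled with 10x Genomics droplets, giving 3 libraries with 1 for each group. IR_HSO, titled IR+HSO in the labels, came from mice given 8.5 Gy and HSO, which the series title spells out as hemp seed oil. IR came from mice given 8.5 Gy and what the label calls a "colvent control", read here as a vehicle, which is uncertain. The control library came from mice that were not irradiated. Age, strain, sex, the time between irradiation and sampling, the oil's dose and route and the number of mice per library were not given in the sources used here, and no allele other than WT was named. With 1 library per group no difference between groups has a replicate check, and no test was made. The genes were chosen by their summed UMI counts in these same cell sets, with earlier results of these data known. Their levels, and the counts of members called below, are therefore a description. The intervals below are exact 95% intervals that cover counting error only, not the spread between cells or between mice. Those of summed UMIs are therefore too narrow where few cells hold many of the UMIs.

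Alpha- and beta-tubulin pair into the dimer that polymerises into microtubules, the tracks of intracellular transport and, in dividing cells, the fibres of the mitotic spindle. Mice carry several genes for each subunit. Tuba1b and Tubb5, the mouse counterpart of human TUBB, serve dividing and resting cells alike, Tubb2a is best known from neurons, and Tuba4a encodes an alpha-tubulin that lacks the terminal tyrosine other alpha-tubulins carry. Lymphocytes use microtubules to move the centrosome and lytic granules towards a target cell. Tubulin messages are also degraded when free dimers build up, a feedback that in human cells runs through TTC5, which binds the nascent tubulin chain, and its partners SCAPER and CNOT11.

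Cells with at least 500 unique molecular identifiers (UMIs, each counting a captured RNA molecule) and under 10% mitochondrial UMIs were kept, 10608 in IR_HSO, 12866 in IR and 9163 in control. T cells had at least 2 UMIs of Cd3d, Cd3e and Cd3g together. NK cells had a UMI of Ncr1 and none of those CD3 genes. Each was split into cycling cells, with a UMI of Mki67 or Top2a, and other cells, without. B cells had at least 2 UMIs of Cd79a and Cd79b. Cycling T cells numbered 731 in IR_HSO, 1121 in IR and 338 in control. The other T cells numbered 6251, 7091 and 3393 in the same libraries. Cycling NK cells numbered 92 in IR_HSO, 170 in IR and 28 in control, and the other NK cells 954, 1361 and 309. The B gate held 321 cells in IR_HSO, 444 in IR and 4719 in control.

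The T and NK gates carried the markers of their names, with all 8 T markers in each T set and all 8 NK markers in each NK set, summing to at least 4293 and 11684 CPM (UMIs of a gene per 1000000 UMIs of the cell set). Those lists include the CD3 genes and Ncr1, on which the gates were set, so that part was fixed in advance. The 5 T markers other than the CD3 genes were also found in each NK set, summing to 574 to 937 CPM. All 8 NK markers were found in each T set, summing to 266 to 1498 CPM. The name "B" did not hold after irradiation. Cells with at least 10 UMIs of Jchain, a chain made by plasma cells, were 73.8% of the gate in IR_HSO, 61.9% in IR and 1.48% in control, and immunoglobulin genes took 53.1%, 53.8% and 4.26% of its UMIs. Below, the set is called the Cd79 gate for that reason. It shared 93 cells with the T gate in IR_HSO, 138 in IR and 541 in control, and no doublet caller was run. Over all barcodes, before the filter, ribosomal RNA took 5.20% of UMIs in IR_HSO, 1.26% in IR and 3.07% in control. Mitochondrial genes took 3.84%, 2.37% and 2.25% of those UMIs, and 12 pancreatic acinar genes 0.862%, 0.489% and 0.000114%. Between 34 and 54 barcodes were shared by each pair of libraries, and none by all 3. Acinar genes held 8976 CPM in the other NK cells of IR_HSO, 4786 CPM in IR and 2.86 CPM in control, and 973, 2632 and 0.718 CPM in the other T cells. The part of these differences in the tubulin values was not tested.

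Promoter sequences, from RefSeq on GRCm38.p6 (250 bases before to 50 bases after the annotated start), were found for 7 of the 8 genes, and Tubb6 is named only. The 4 below belong to the genes whose counts the results turn on. Tubb5, Tuba1b and Tubb4b had the highest counts over all barcodes and were higher in cycling than in other T cells of each library. Tuba4a was the alpha gene that differed least between IR_HSO and IR. Capitals mark CCAAT on either strand (ATTGG on the printed strand), the box bound by NF-Y, a factor known from many cell-cycle promoters.
Tuba1b (chr15:98934341-98934640, minus strand): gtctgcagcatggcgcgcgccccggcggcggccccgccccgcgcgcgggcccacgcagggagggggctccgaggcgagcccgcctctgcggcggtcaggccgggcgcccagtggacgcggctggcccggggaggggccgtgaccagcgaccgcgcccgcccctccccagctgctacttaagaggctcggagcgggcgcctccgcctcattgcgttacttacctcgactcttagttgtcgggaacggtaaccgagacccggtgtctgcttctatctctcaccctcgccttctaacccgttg
Tuba4a (chr1:75219245-75219544, minus strand): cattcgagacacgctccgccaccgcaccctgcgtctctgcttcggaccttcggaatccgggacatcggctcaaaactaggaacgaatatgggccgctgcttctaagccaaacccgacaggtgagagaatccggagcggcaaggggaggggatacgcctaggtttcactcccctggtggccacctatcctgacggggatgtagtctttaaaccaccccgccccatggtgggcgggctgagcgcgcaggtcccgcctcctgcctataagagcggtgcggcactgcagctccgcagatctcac
Tubb5 (chr17:35838252-35838551, minus strand): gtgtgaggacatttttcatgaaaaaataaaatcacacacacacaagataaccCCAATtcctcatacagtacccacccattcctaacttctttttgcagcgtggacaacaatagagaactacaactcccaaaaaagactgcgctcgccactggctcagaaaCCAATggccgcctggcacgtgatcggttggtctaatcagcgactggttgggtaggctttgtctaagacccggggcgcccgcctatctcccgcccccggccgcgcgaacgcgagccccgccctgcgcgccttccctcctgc
Tubb4b (chr2:25224653-25224952, minus strand): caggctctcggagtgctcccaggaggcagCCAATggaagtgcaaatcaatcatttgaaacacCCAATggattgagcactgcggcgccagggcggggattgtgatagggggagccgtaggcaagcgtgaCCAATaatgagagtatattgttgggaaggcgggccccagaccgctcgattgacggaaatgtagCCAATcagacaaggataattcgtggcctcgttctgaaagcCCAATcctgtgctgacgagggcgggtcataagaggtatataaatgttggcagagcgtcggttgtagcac
CCAAT was found 5 times in the Tubb4b window, 2 times in that of Tubb5, once each in those of Tuba1a and Tuba1c, and not in those of Tuba1b, Tuba4a and Tubb2a. Of all 32851 promoters of that length, 37.4% held it and 11.7% held it at least 2 times. The letters TTTGAA, known as the CHR element of cell-cycle genes, were found in the Tubb4b window alone among the 7, and in 17.9% of all promoters. TATAAA was found in those of Tubb4b and Tubb2a and in 13.6% of all. GGGCGG, a GC box, was found in every member window except that of Tuba1c, and in 35.7% of all. All motifs were searched on both strands. Tuba1b and Tuba1a are direct neighbours, and no protein-coding gene lies between Tuba1a and Tuba1c, in the RefSeq order of genes.

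Tubb5 was the most abundant tubulin in all 15 combinations of 5 cell sets and 3 libraries, by 3' UMI counts, and Tuba1b or Tubb4b came second. In the other T cells, Tubb5 stood at 235 CPM in IR_HSO, 305 CPM in IR and 353 CPM in control. Tuba1b there stood at 37.4 CPM in IR_HSO, 104 CPM in IR and 99.6 CPM in control. Summed over the 8 genes, tubulin in the other T cells was 394 CPM in IR_HSO, 629 CPM in IR and 694 CPM in control. In the other NK cells the sum was 280 CPM in IR_HSO, 534 CPM in IR and 532 CPM in control. IR_HSO was lowest in both sets, and the sum of IR was 1.10-fold below control in the other T cells and level with it in the other NK cells. The closely related sequences of the Tuba1 genes, and of the Tubb genes, leave the assignment of reads to each gene uncertain. How far reads shared by such genes affect the sum of each subunit was not tested.

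**Figure D1:**
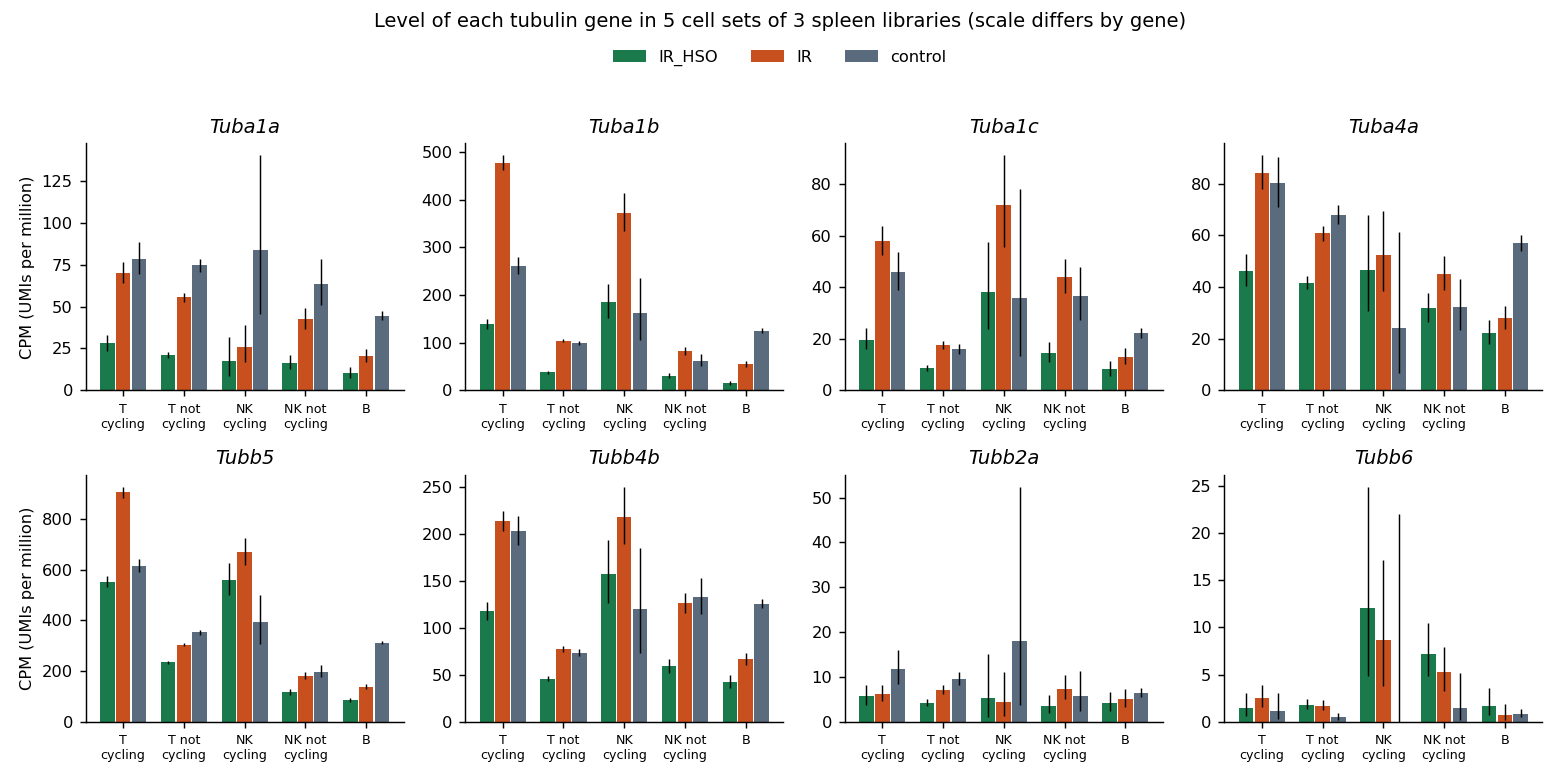
Level of the 8 tubulin genes, in CPM, in 5 cell sets, with IR_HSO, IR and control from left to right and exact 95% Poisson intervals, which cover counting error only. In the other T cells, labelled T not cycling, Tuba1b stands at 37.4 CPM in IR_HSO, 104 CPM in IR and 99.6 CPM in control, and Tubb6 is at most 12.1 CPM in any set.

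Alpha-tubulin messages were lower in IR_HSO than in IR in all 5 cell sets, by 1.82- to 2.96-fold. The alpha genes together stood at 108 CPM in IR_HSO and 238 CPM in IR in the other T cells, a 2.20-fold lower level (2.10 to 2.30). In cycling T cells they stood at 233 CPM in IR_HSO and 689 CPM in IR, 2.96-fold lower (2.77 to 3.16). In the other NK cells they stood at 93.0 CPM in IR_HSO and 213 CPM in IR, 2.29-fold lower (2.03 to 2.60). Cycling NK cells had 287 CPM in IR_HSO and 522 CPM in IR, 1.82-fold lower (1.52 to 2.19), and the Cd79 gate 55.9 CPM in IR_HSO and 116 CPM in IR, 2.08-fold lower (1.78 to 2.42).

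Tuba1b had the largest difference in CPM of the alpha genes in each set. In the other T cells its level was 2.78-fold lower in IR_HSO than in IR (2.59 to 2.9985), in cycling T cells 3.43-fold lower (3.16 to 3.73), in other NK cells 2.68-fold lower (2.17 to 3.33), in cycling NK cells 2.01-fold lower (1.62 to 2.53) and in the Cd79 gate 3.51-fold lower (2.67 to 4.68). Cycling T cells had 139 CPM of Tuba1b in IR_HSO, 477 CPM in IR and 261 CPM in control. Tuba1a, a gene best known from developing neurons, stood at 20.9 CPM in IR_HSO, 55.4 CPM in IR and 74.6 CPM in control in the other T cells. Its level was 2.66-fold lower in IR_HSO than in IR there (2.41 to 2.94). Tuba1c stood at 8.47 CPM in IR_HSO, 17.5 CPM in IR and 15.9 CPM in control in the same cells, and was 3.05-fold lower in IR_HSO than in IR in the other NK cells (2.25 to 4.19). In the Cd79 gate Tuba1c was 1.62-fold lower in IR_HSO (1.06 to 2.52), but its log2 ratio turned to 0.43 with cells thinned to 1000 UMIs and to 0.86 without cells over 3 times the median UMI number of their library. The median cell of that gate had 9898 UMIs in IR_HSO and 9223 in IR, so the latter filter changes which cells the gate holds. Tuba4a was the alpha gene that differed least, 1.46-fold lower in the other T cells (1.35 to 1.58), and its interval in the Cd79 gate, 0.974- to 1.66-fold, reached past no difference.

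Beta-tubulin messages were lower in IR_HSO as well, by 1.23- to 1.72-fold, which was less than the alpha genes in each set. Together they stood at 286 CPM in IR_HSO and 391 CPM in IR in the other T cells, 1.37-fold lower (1.33 to 1.41). Tubb5 was 1.30-fold lower in the other T cells (1.26 to 1.34) and 1.64-fold lower in cycling T cells (1.57 to 1.72). Tubb4b, a widely expressed class IV beta gene, was 1.71-fold lower in the other T cells (1.59 to 1.84) and 2.13-fold lower in the other NK cells (1.82 to 2.50). Tubb2a had 4.27 CPM in IR_HSO and 7.10 CPM in IR in the other T cells, 1.66-fold lower (1.31 to 2.12), and 1170 UMIs in all barcodes. Tubb6, a class V beta gene, had 453 UMIs in all barcodes and stood at 1.78 CPM in IR_HSO and 1.70 CPM in IR in the other T cells, a ratio of 1.05 (0.681 to 1.60). In the other NK cells it stood at 7.22 CPM in IR_HSO, 5.24 CPM in IR and 1.43 CPM in control.

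**Figure D2:**
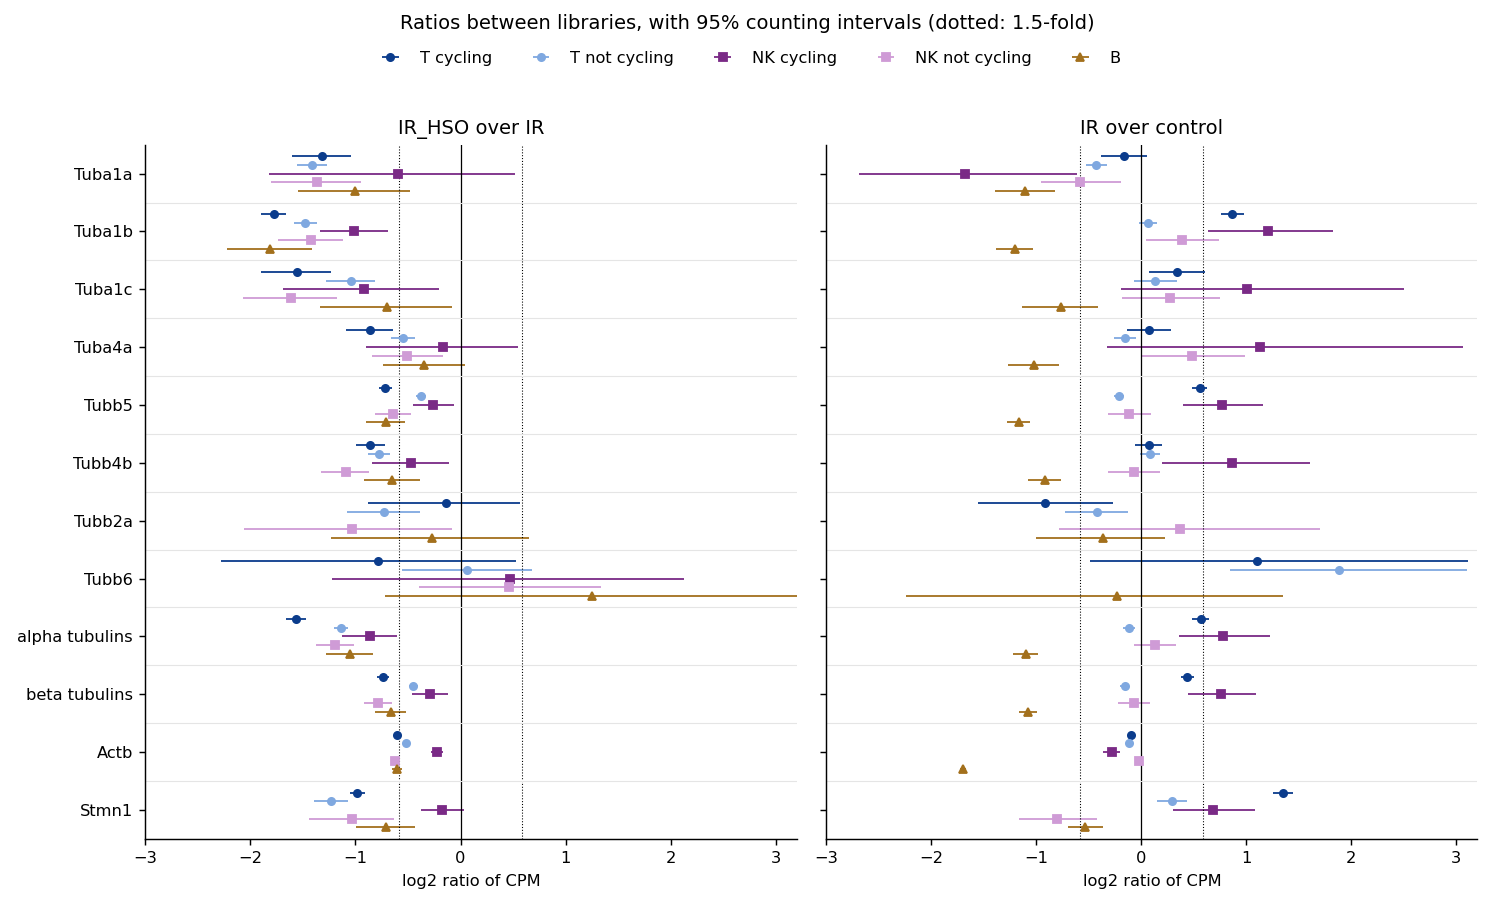
Ratio of CPM for IR_HSO over IR and for IR over control, on a log2 axis, for each tubulin gene, the alpha and beta sums, the actin gene Actb and the tubulin-binding gene Stmn1, with 95% counting intervals. Symbols mark the cell sets, dotted lines mark 1.5-fold, and points with fewer than 4 UMIs on either side are left out. Tuba1b lies left of the dotted line in all 5 sets of IR_HSO over IR.

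The share of the tubulin UMIs taken by the alpha genes differed in the same way. It was 27.4% in IR_HSO (26.6% to 28.3%), 37.8% in IR (37.1% to 38.5%) and 37.2% in control (36.4% to 38.0%) in the other T cells. In cycling T cells it was 25.6% in IR_HSO (24.3% to 27.0%), 37.9% in IR (37.1% to 38.8%) and 35.9% in control (34.5% to 37.3%). In the other NK cells it was 33.3% in IR_HSO (30.5% to 36.2%), 39.9% in IR (37.9% to 42.0%) and 36.6% in control (33.1% to 40.2%), so there IR_HSO and control overlap. Tuba1b took 9.48% of tubulin UMIs in IR_HSO, 16.6% in IR and 14.4% in control in the other T cells. Tubb5 took 59.5% in IR_HSO, 48.4% in IR and 50.8% in control in those cells. This share is a ratio among tubulin genes, so it does not depend on the denominator of the CPM.

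**Figure D3:**
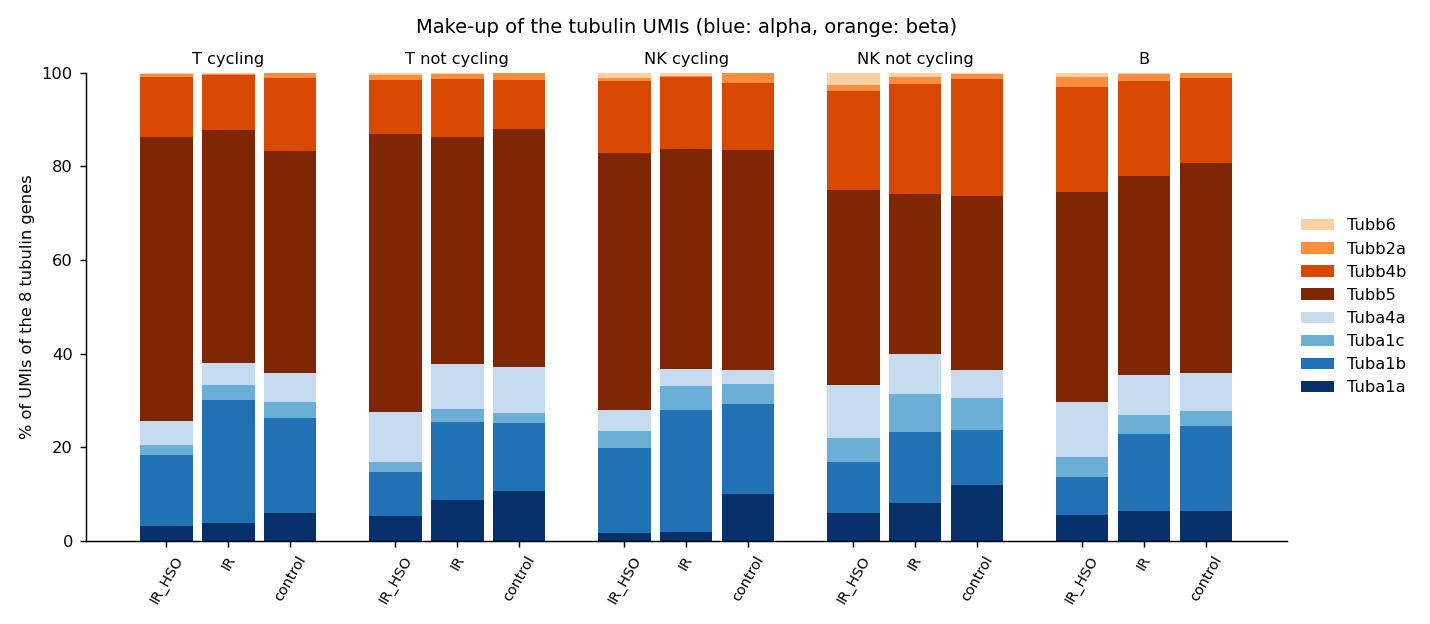
Share of each gene among the UMIs of the 8 tubulin genes, in %, for 5 cell sets with IR_HSO, IR and control from left to right. Alpha genes are blue and beta genes orange, and the alpha share of the other T cells (T not cycling) is 27.4% in IR_HSO, 37.8% in IR and 37.2% in control.

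Against the whole transcriptome, most members lay in the low tail of the IR_HSO over IR ratios in each set but cycling NK cells. The members were chosen with earlier results of these data known, so the counts here describe them and are no further evidence. A gene was called when its CPM + 1 differed at least 1.5-fold and its mean over both libraries was at least 5 CPM. In cycling T cells 7 members passed this minimum and 6 were called lower, where 7.28% of the 10204 genes were and 8.66% were called higher. In the other T cells 5 of the 7 that passed were called lower, where 3.13% of genes were and 5.57% were called higher, with a median of -0.76 on the log2 scale against 0.05 over all genes. In the other NK cells 6 of 8 were called lower, where 5.67% of genes were and 6.4% were called higher, with medians of -0.97 and -0.02. In cycling NK cells 2 of 7 were called lower, where 12.3% of genes were and 18% were called higher. In the Cd79 gate 5 of 6 were called lower, where 6.85% of genes were and 5.41% were called higher. No member that passed was called higher in any of these 5 sets. By ratio Tuba1b stood at the 0.337 percentile of the genes in the other T cells, Tuba1a at 0.377 and Tuba1c at 1.09. Tubb4b stood at 1.89, Tubb2a at 2.78, Tuba4a at 3.83 and Tubb5 at 8.42, and Tuba4a and Tubb5 were not called there. In cycling NK cells the 7 that passed lay between 4.87 for Tuba1b and 75.2 for Tubb6.

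**Figure D4:**
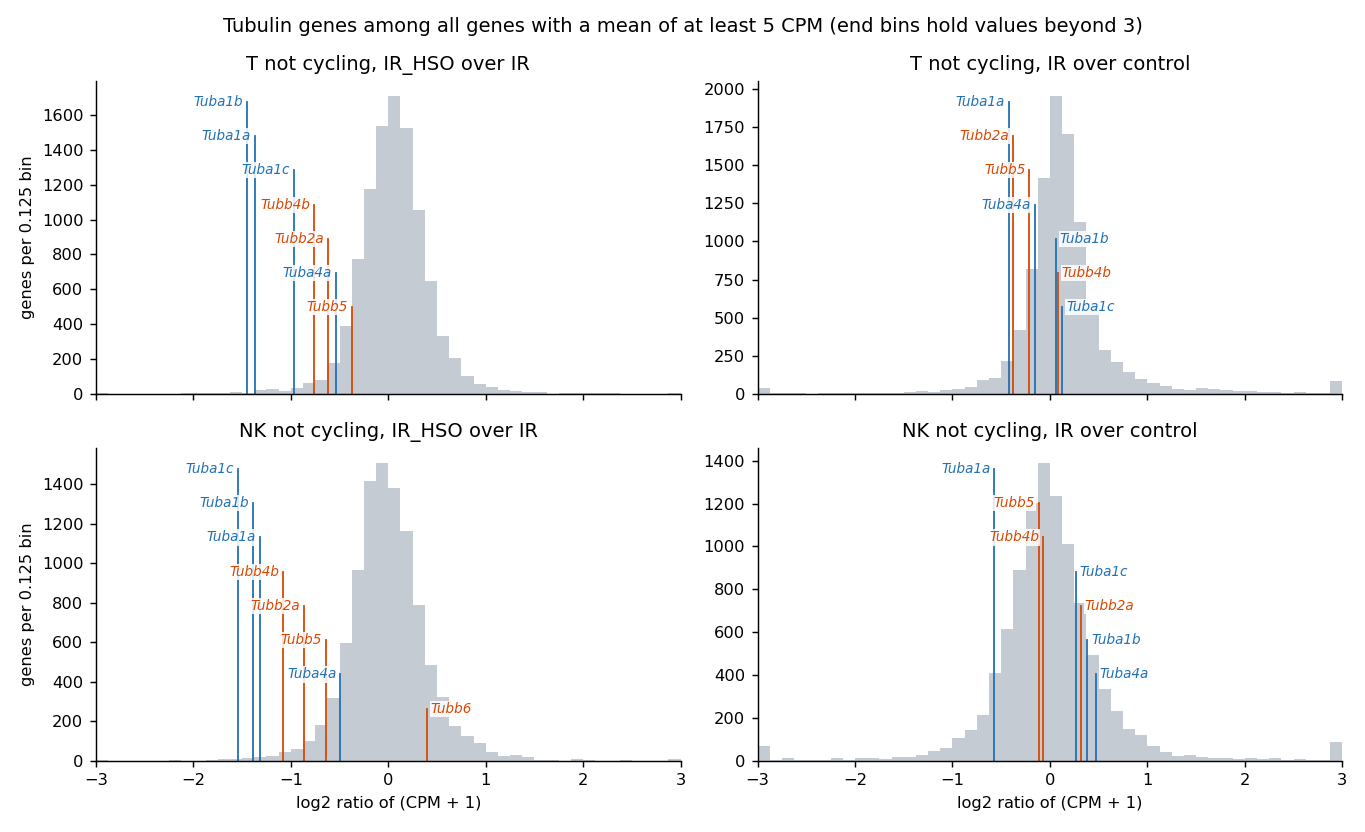
Histograms of the log2 ratio of (CPM + 1) over all genes with a mean of at least 5 CPM (grey), in the other T and other NK cells, with the members that passed that minimum as lines, blue for alpha and orange for beta. In the left panels (IR_HSO over IR) all members but Tubb6 lie left of 0, and in the right panels (IR over control) they lie on both sides.

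Single cells were also compared at a fixed depth. After each cell was thinned to 1000 UMIs, 3.33% of the other T cells in IR_HSO had a UMI of Tuba1b (2.89% to 3.80%), against 9.02% in IR (8.35% to 9.72%) and 8.64% in control (7.72% to 9.64%). Unthinned, the shares were 12.8% in IR_HSO, 27.1% in IR and 38.6% in control, where the cells were deeper. Thinning left out 88, 218 and 14 shallower cells of those libraries. For Tubb5 the thinned shares were 20.2% in IR_HSO (19.2% to 21.2%), 24.6% in IR (23.6% to 25.6%) and 27.7% in control (26.2% to 29.2%). All spleen cells use tubulin, so no cell type gave a background share from free RNA.

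Cycling cells held more tubulin than other cells in each library, but in control this rested on cells with many UMIs. T cells of control with 5 or more UMIs of Mki67 and Top2a had a median of 18525 UMIs, against 4230 over all its kept cells. Leaving out the deep cells of control therefore also leaves out cells with many cell-cycle UMIs. In T cells the sum was 910 CPM in cycling and 394 CPM in other cells of IR_HSO, a ratio of 2.31 (2.23 to 2.39). It was 1818 CPM in cycling and 629 CPM in other cells of IR, a ratio of 2.89 (2.83 to 2.96), and 1299 CPM and 694 CPM in control, a ratio of 1.87 (1.81 to 1.94). In NK cells the ratios were 3.66 in IR_HSO (3.30 to 4.05), 2.67 in IR (2.49 to 2.86) and 1.57 in control (1.30 to 1.89), the last over 140 tubulin UMIs of 28 cycling cells. Without cells over 3 times the median UMI number of their library, the sum in T cells was 812 CPM in cycling and 397 CPM in other cells of IR_HSO, 1545 and 630 CPM in IR, and 691 and 688 CPM in control, where next to no difference was left. In NK cells it was 508 and 290 CPM in IR_HSO, 1269 and 546 CPM in IR, and 641 and 527 CPM in control. Tuba1b had the highest ratio in T cells of IR_HSO, 3.72 (3.36 to 4.11), and of IR, 4.58 (4.36 to 4.81), and had 2.62 in control (2.42 to 2.84), where its log2 ratio turned to -0.16 without those cells. Tubb5 had ratios of 2.35 in IR_HSO (2.25 to 2.46), 2.98 in IR (2.88 to 3.07) and 1.75 in control (1.66 to 1.84). Tuba4a had 1.12 in IR_HSO, 1.39 in IR and 1.18 in control, and Tuba1a had 1.35, 1.26 and 1.05. Tuba1b, Tuba1c, Tubb5 and Tubb4b were the 4 members called higher in T cells of each library, of 6 that passed the minimum in IR_HSO and 7 in IR and control. Over all genes 4.75% were called higher in IR_HSO, 6.82% in IR and 13% in control, and 2.2%, 2.03% and 4.83% lower. In NK cells 5 of 7 members were called higher in IR_HSO, 5 of 8 in IR and 3 of 7 in control, where 12.5%, 8.69% and 22.4% of genes were. Tuba1a and Tubb2a were called lower in cycling NK cells of IR, where 14.6% of genes were, and no member in IR_HSO or control, where 13.4% and 17.5% were.

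The highest levels were in cells with many cell-cycle UMIs. T cells with 5 or more UMIs of Mki67 and Top2a had 2598 CPM of tubulin in IR_HSO, 3504 CPM in IR and 2439 CPM in control. Those with a single such UMI had 419 CPM in IR_HSO, 708 CPM in IR and 703 CPM in control, against 394, 629 and 694 CPM in cells with none. T cells with 2 to 4 had 502 CPM in IR_HSO and 921 CPM in IR, above the cells with none, and 564 CPM in control, below them. NK cells with 2 to 4 had 331 CPM in IR_HSO (202 to 511), from 9 cells, and 1191 CPM in IR (1047 to 1349), from 34 cells, against 280 and 534 CPM in cells with none. NK cells with 5 or more had 2365 CPM in IR_HSO, 3862 CPM in IR and 2084 CPM in control, from 18, 25 and 3 cells. T cells with 5 or more were 13.7% of the cycling T cells in IR_HSO (11.3% to 16.4%), 27.1% in IR (24.5% to 29.8%) and 15.7% in control (11.97% to 20.0%). They were also deeper, with a median of 8801 UMIs in IR_HSO, 8781 in IR and 18525 in control, against 3469, 3427 and 5397 in cells with none.

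Within each class of cell-cycle UMI number, summed tubulin in T and NK cells was lower in IR_HSO than in IR. The upper classes are ranges, and the numbers of UMIs inside them were not matched between libraries. In T cells with 5 or more, summed tubulin was 1.35-fold lower in IR_HSO (1.29 to 1.41), Tuba1b 2.16-fold lower (1.96 to 2.39) and Tubb5 1.11-fold lower (1.05 to 1.17). With 2 to 4 such UMIs the sum was 1.84-fold lower (1.66 to 2.04), and with a single UMI 1.69-fold lower (1.57 to 1.81). Over all cycling T cells the sum was 1.997-fold lower (1.93 to 2.07), with the smaller share of cells with 5 or more in IR_HSO given above. Without cells over 3 times the median UMI number it was 812 CPM in IR_HSO and 1545 CPM in IR in cycling T cells, and 508 CPM and 1269 CPM in cycling NK cells, a wider gap there than the 1023 and 1424 CPM with them. NK cells with 5 or more cell-cycle UMIs had a median of 10777 UMIs in IR_HSO and 9001 in IR. The medians over all kept cells were 3322 and 3139. This filter can therefore remove unequal parts of that class in the 2 libraries, and the gap it left was not matched for cell-cycle class. In NK cells with 5 or more the sum was 1.63-fold lower in IR_HSO (1.46 to 1.83). That rested on 18 cells in IR_HSO and 25 in IR, whose spread the interval leaves out.

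**Figure D5:**
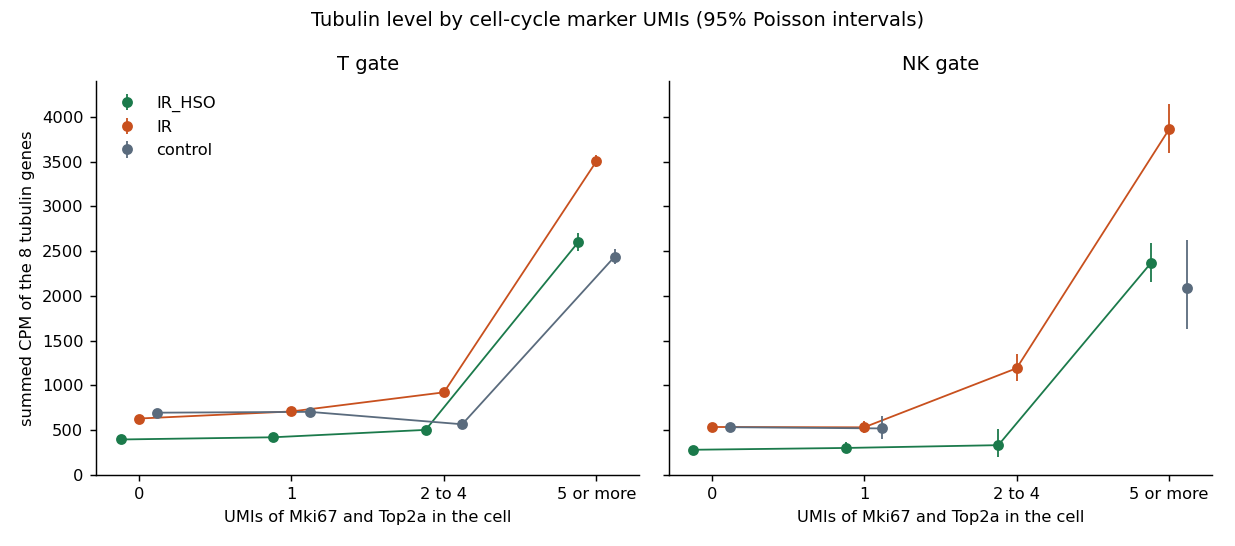
Summed CPM of the 8 tubulin genes in T and NK cells by the number of Mki67 and Top2a UMIs in the cell, for IR_HSO, IR and control, with exact 95% Poisson intervals. The T cell points are 394, 629 and 694 CPM with no such UMI and 2598, 3504 and 2439 CPM with 5 or more, in the order IR_HSO, IR, control, and control had no NK cell with 2 to 4.

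T cell subsets gave the same direction for IR_HSO against IR. Among other T cells with a UMI of Cd8a or Cd8b1 and none of Cd4, summed tubulin was 436 CPM in IR_HSO, 643 CPM in IR and 772 CPM in control. In those with Cd4 and neither CD8 gene it was 401 CPM in IR_HSO, 655 CPM in IR and 641 CPM in control. In cells with a Foxp3 UMI, the factor of regulatory T cells, it was 394 CPM in IR_HSO, 640 CPM in IR and 560 CPM in control, over 1349, 740 and 198 cells. IR_HSO was lowest in all 3 subsets, while IR was above control in the Foxp3 cells and below it in the CD8 cells. In the Cd4 cells the intervals of IR (640 to 671 CPM) and control (622 to 660 CPM) overlapped. The Foxp3 cells can also be part of the Cd4 cells.

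Between the IR and control libraries, tubulin differed little in the other T and NK cells, those without a UMI of Mki67 or Top2a. The libraries differ by irradiation and by what the label calls the "colvent control", and neither can be told apart from the other or from the library. The ratio of the sum was 0.906 in the other T cells (0.886 to 0.927) and 1.004 in the other NK cells (0.924 to 1.09). Markers of other cell types differed in both directions in these sets, with more erythroid and B cell markers in control. Plasma cell markers were higher in IR, at 1824 CPM in IR and 208 CPM in control in the other NK cells. In the other T cells they stood at 1578 CPM in IR and 200 CPM in control. Acinar genes were also higher in IR, as given above. Erythroid markers summed to 2.38 CPM in IR and 4648 CPM in control in the other NK cells, and to 1.24 and 177 CPM in the other T cells. B cell markers summed to 60.7 CPM in IR and 1116 CPM in control in the other NK cells, and to 51.7 and 554 CPM in the other T cells. The Cd79 gate held 1.25% of the other NK cells in IR and 15.9% in control, and 1.35% and 13.9% of the other T cells. Without the cells of 2 gates the sum was 646 CPM in IR and 711 CPM in control in the other T cells and 544 CPM in both libraries in the other NK cells. With mitochondrial, ribosomal, immunoglobulin, haemoglobin and acinar genes left out of the total it was 889 CPM in IR and 1030.5 CPM in control in the other T cells, and 687 and 677 CPM in the other NK cells. No member was called in either set, of 7 that passed the minimum in each, where 9.7% of genes were called higher and 3.48% lower in the other T cells, and 9.49% and 8.78% in the other NK cells. Tuba1a was the lowest of the abundant genes, with a ratio of 0.744 (0.692 to 0.799) in the other T cells. In cycling T cells the sum was 1818 CPM in IR and 1299 CPM in control, a ratio of 1.40 (1.35 to 1.45). Tuba1b was called higher there, with a ratio of 1.82 (1.69 to 1.97), and Tubb2a lower, with 6.24 CPM in IR and 11.8 CPM in control, among 7 members, where 10% of genes were called higher and 6.31% lower. Tubb5 stood at 906 CPM in IR and 617 CPM in control, a ratio of 1.47 (1.40 to 1.54). Without cells over 3 times the median UMI number the sum in cycling T cells was 1545 CPM in IR and 691 CPM in control, a wider gap. T cells with 5 or more UMIs of Mki67 and Top2a had a median of 8781 UMIs in IR and 18525 in control. The cells left by this filter can therefore differ in their mix of cell-cycle classes. The IR library is shared by this comparison and that of IR_HSO with IR. Cycling T cells of control held 2661 CPM of erythroid markers, against 0.664 CPM in IR, and 20.7% of them also passed the Cd79 gate, against 3.75% in IR. Without the cells of 2 gates the sum was 1919 CPM in IR and 1144 CPM in control in cycling T cells, a wider gap than with them.

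Cycling NK cells had 5 of 7 members called higher and 2 lower in IR, where 17.9% and 31% of genes were, and control had 28 such cells. The Tubb2a call there rested on 4 UMIs in IR and 3 in control, a ratio of 0.243 (0.0411 to 1.66). Tuba4a had 48 UMIs in IR and 4 in control, a ratio of 2.18 (0.80 to 8.34), and Tuba1c 66 and 6, a ratio of 2.0 (0.872 to 5.65), so these 3 intervals reach past no difference. Tubb6 had 0 UMIs there in control, which allows up to 17.9 CPM (3 counts), and 8.71 CPM in IR. In the Cd79 gate 6 of 7 members were called lower in IR, where 76.1% of the 9309 genes were and 5.45% were called higher, with a median of -0.995 against -1.06 over all genes. The sum was 327 CPM in IR and 694 CPM in control, a ratio of 0.471 (0.449 to 0.495). The members' count was thus near the background. On the log2 scale the ratio was -1.08, and -0.085 with a denominator without mitochondrial, ribosomal, immunoglobulin, haemoglobin and acinar genes. Immunoglobulin UMIs took 53.8% of the set in IR and 4.26% in control.

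Set against control directly, IR_HSO had the lowest tubulin of the 3 libraries in the other T and NK cells. In the other T cells all 7 members that passed the minimum were called lower than control, where 5.64% of genes were and 17% were called higher, and the sum had a ratio of 0.568 (0.554 to 0.583). In the other NK cells 5 of 6 were called lower, where 14% of genes were and 13.3% were called higher, with a ratio of 0.526 for the sum (0.478 to 0.578). In cycling T cells 6 of 7 were called lower, where 8.84% of genes were and 14.4% were called higher. In cycling NK cells 2 of 8 were called higher and 2 lower, where 21.8% and 29.1% of genes were. In the Cd79 gate 6 of 7 were called lower, where 75% of genes were and 5.98% were called higher. This comparison shares its libraries with those above, so its values are not further evidence. Tubb5 in cycling T cells stood at 552 CPM in IR_HSO and 617 CPM in control, a ratio of 0.895 (0.845 to 0.948). The direction in cycling cells turned with a filter on cells with many UMIs, which also takes out cells with many cell-cycle UMIs. T cells with 5 or more of those had a median of 8801 UMIs in IR_HSO and 18525 in control. The cells left can therefore differ in their mix of cell-cycle classes, which was not matched. Without cells over 3 times the median UMI number, summed tubulin in cycling T cells was 812 CPM in IR_HSO and 691 CPM in control, against 910 and 1299 CPM with them. In cycling NK cells it was 508 CPM in IR_HSO and 641 CPM in control without them, against 1023 and 837 CPM with them.

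Genes that work on tubulin mostly differed less than tubulin itself between IR_HSO and IR. Here and in the lists that follow, the counts stand against 7.28% of all genes called lower and 8.66% higher in cycling T cells, and 3.13% lower and 5.57% higher in the other T cells. Gamma-tubulin and its ring complex, which start new microtubules, had 0 of 9 tested members called in either direction in T cells of either kind, with medians of 0.04 in cycling and 0.18 in other T cells on the log2 scale, against 0.00 and 0.05 over all genes. The 20 folding genes, among them the CCT chaperonin that folds tubulin and actin, had 1 called lower in cycling T cells and 0 in other T cells, with medians of -0.38 and -0.31 beside those same medians over all genes. Tbca, the cofactor that holds beta-tubulin before pairing, was lowest in both sets and stood at 138 CPM in IR_HSO and 207 CPM in IR in the other T cells. Tbcd, a cofactor of dimer assembly, stood at 18.0 CPM in IR_HSO and 12.3 CPM in IR, and Tbce at 35.5 and 26.6 CPM. Of the autoregulation genes, Ttc5 stood at 59.99 CPM in IR_HSO and 52.5 CPM in IR in those cells, Scaper at 44.8 and 42.0 CPM and Cnot11 at 22.3 and 23.8 CPM, and none was called. Tubulin-modifying enzymes had 0 called of 9 tested in the other T cells and 1 higher of 10 in cycling T cells. That gene was Hdac6, a tubulin deacetylase, at 10.1 CPM in IR_HSO and 5.05 CPM in IR.

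Stmn1, which encodes stathmin, a protein that binds free dimers, was lower in 4 of the 5 cell sets. It stood at 17.5 CPM in IR_HSO and 41.1 CPM in IR in the other T cells, a ratio of 0.426 (0.381 to 0.475), and at 408 and 806 CPM in cycling T cells, a ratio of 0.506 (0.481 to 0.533). Its ratio was 0.489 in the other NK cells (0.367 to 0.646) and 0.612 in the Cd79 gate (0.503 to 0.741). In cycling NK cells it stood at 537 CPM in IR_HSO and 605 CPM in IR, a ratio of 0.888 (0.770 to 1.02) that was not called and whose interval reaches past no difference. Stmn1 was the single gene called lower of 16 tested in its list in the other T cells, and in cycling T cells it and Kif2c, a microtubule-depolymerising kinesin, were the 2 of 18. Dynll1, a dynein light chain that also binds many other proteins, was lowest of the motor genes in both T sets, at 164 CPM in IR_HSO and 363 CPM in IR in the other T cells and at 180 and 421 CPM in cycling T cells. Of the motors, 2 of 14 were called lower in cycling T cells and 1 of 13 in the other T cells, with a median of -0.13 and of -0.12.

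Genes of the spindle and of DNA replication, counted in T cells with IR_HSO against IR, were lower in the cycling set. Of 18 spindle genes 15 were called lower, with a median of -0.87, and of 12 replication genes 11, with a median of -0.79, where the median over all genes was 0.00. The gate that defines cycling uses Mki67 and Top2a, and the share of cells with 5 or more of their UMIs differed as given above. Plk1, the mitotic kinase, had 12.4 CPM in IR_HSO and 28.3 CPM in IR, and Rrm2, a subunit of ribonucleotide reductase, had 35.0 and 93.5 CPM. In the other T cells 0 of 9 tested replication genes were called, with a median of -0.28 against 0.05 over all genes. In cycling NK cells 6 of 18 spindle genes were called higher, 1 lower and 11 between, where 18% of all genes were called higher and 12.3% lower. The median was 0.25 against 0.06 over all genes, from 92 cells in IR_HSO and 170 in IR. Summed tubulin in that set was 1023 CPM in IR_HSO and 1424 CPM in IR.

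Actin cytoskeleton genes had medians nearer to 0 than tubulin. Of 16 genes 3 were called lower in cycling T cells and 2 in the other T cells, with medians of -0.35 and -0.29 against 0.00 and 0.05 over all genes. Tmsb4x, which encodes thymosin beta-4, a binder of actin monomers, stood at 8353 CPM in IR_HSO and 14067 CPM in IR in the other T cells. Actb, the beta-actin gene, stood at 4850 CPM in IR_HSO and 6951 CPM in IR there, a ratio of 0.698 (0.693 to 0.703). Tmsb10, another thymosin, stood at 3138 CPM in IR_HSO and 2628 CPM in IR. Myh9, a non-muscle myosin chain, stood at 600 CPM in IR_HSO and 533 CPM in IR.

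Over the 15 combinations of cell set and library, which share depth and the 3 libraries, the profile of summed tubulin (log2 of CPM + 1) was most like those of Ptma (Pearson r of 0.96), Lsm2, Tmpo, Ppil1 and Pgk1 (0.94), among 4913 genes with at least 50 CPM in some combination. Tuba1b was most like Tubb5, with an r of 0.95. Tubb4b was most like Tuba1c, with an r of 0.96. Tuba1a was most like Taf12 at 0.93, and its r with Tuba1b was 0.57. The profile of Tuba4a was most like that of Rps2, a ribosomal protein gene, at 0.95. Among members Tuba1a and Tubb2a had an r of 0.80, and Tubb6 had an r of 0.11 with the sum. These values describe the points and carry no test.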

How the data were processed

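Spleen cells of 3 groups, IR_HSO, IR and control, were profiled with 10x Genomics, 1 library each. The authors deposited raw UMI counts per gene and barcode, produced by Cell Ranger, version 7.0.1 per the file headers, and GRCm39 per the submitters' processing notes; the annotation release and settings are not given in the sources used here. The libraries held 45636807 UMIs in IR_HSO, 50836313 in IR and 47298108 in control, over 12710, 13509 and 9520 barcodes. Every barcode had at least 500 UMIs, and the 2102, 643 and 357 removed had 10% or more mitochondrial UMIs. Genes were matched by symbol in the feature lists.

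Counts were summed per cell set and library, and CPM was taken over all UMIs of the set. A list's log2 ratio added 1 CPM to each side, and single ratios used the raw CPM with exact conditional intervals; levels carry exact Poisson and shares exact Clopper-Pearson intervals at 95%. A call needed 1.5-fold and a mean of at least 5 CPM. Members, gene lists and cell-cycle classes were chosen with earlier results of these data known. The rule for named genes took all members, the 4 largest and 2 smallest ratios within a list (not all of which are printed) and the 5 or 3 genes of highest Pearson r, and others were named after their values were seen. Settings tried were the cell filters, the gates, the denominator, edgeR 4.0.16 TMM factors (R 4.3.3), the weight of cells and thinning to 1000 UMIs, and the high-UMI filter on sums and the CD4, CD8, Foxp3 and non-cycling Cd79 subsets, chosen after the data were seen. Calls and intervals were tried on simulated Poisson counts drawn from the summed profile of the other T cells of IR. Such counts hold no spread between cells or libraries, so they cannot check for it. Scripts used Python 3.11.15, numpy 2.4.6, scipy 1.17.1, pandas 2.3.3 and matplotlib 3.10.9.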

Additional observations from a re-analysis of the deposited data

Results flagged for a closer look

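IR against control, 5 members were called in opposite directions in 2 cell sets, and in none of these was the difference between the sets tested. Tuba1b had a ratio of 1.82 in cycling T cells and 2.31 in cycling NK cells, where it was higher in IR, and 0.434 in the Cd79 gate, where it was lower. Tuba1c had a ratio of 2.0 in cycling NK cells and 0.589 in the Cd79 gate. Tuba4a had 2.18 and 0.493 in the same sets, Tubb5 had 1.70 and 0.445, and Tubb4b had 1.82 and 0.529. In cycling NK cells the intervals of Tuba1c (0.872 to 5.65, over 66 UMIs in IR and 6 in control) and Tuba4a (0.80 to 8.34, over 48 and 4) reach past no difference. The Cd79 gate side depended on the denominator. On the log2 scale Tuba1c turned to 0.23 with a total without mitochondrial, ribosomal, immunoglobulin, haemoglobin and acinar genes, to 0.17 with TMM factors and to 0.34 centred on the median gene. Tubb4b turned to 0.080, 0.021 and 0.15 under the same settings, and Tuba4a to 0.061 centred. In the Cd79 gate 76.1% of all genes were called lower in IR, and cycling NK cells of control numbered 28.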

How the results depend on the processing

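For summed tubulin, IR_HSO stayed below IR under every setting run, and cycling stayed above other cells; IR against control in the other T and NK cells, not called, had values on both sides of 0. IR_HSO against IR, the other T cells gave -0.62 with the total without mitochondrial, ribosomal, immunoglobulin, haemoglobin and acinar genes, -0.74 with TMM factors, -0.56 in CD8 cells and -0.71 in Cd4 cells, against -0.67 as reported. The other NK cells gave -0.81 with that total, against -0.93. The Cd79 gate gave -0.59 without cells of 2 gates, -1.15 thinned, -0.46 without cells over 3 times the median UMI number and -0.57 without Mki67 or Top2a cells, against -0.79. IR against control, the other T cells gave -0.21 with that total, -0.25 with TMM factors, -0.093 thinned, -0.26 in CD8 cells and 0.032 in Cd4 cells, against -0.14, and the other NK cells gave 0.28 thinned, against 0.01. The Cd79 gate gave -0.085 with that total, -0.14 with TMM factors, -0.42 thinned, -0.28 without cells over 3 times the median UMI number, -0.54 with equal cell weights, -1.53 without cells of 2 gates and -1.21 without Mki67 or Top2a cells, against -1.08, so its size depends on the denominator and on which cells count. The median cell of this gate had 9898 UMIs in IR_HSO, 9223 in IR and 3823 in control. The high-UMI filter therefore falls unequally on it and changes which cells it holds.

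For cycling against other cells, at least 2 cell-cycle UMIs gave 2.01 in IR_HSO, 2.04 in IR and 1.34 in control T cells, with 2.76, 2.24 and 1.97 for NK cells. The wider cycling gate gave 1.003, 1.28 and 0.75 in T cells, 1.56 in NK cells of IR_HSO and 1.18 in NK cells of IR. Thinning gave T cells 1.01, 1.30 and 0.41, NK cells 1.18, 1.17 and 0.16. Leaving out cells over 3 times the median UMI number gave T cells 1.03, 1.29 and 0.0056, NK cells 0.81, 1.22 and 0.28. That filter also takes out deep cells with many cell-cycle UMIs, to an extent that can differ between libraries. Without cells of 2 gates T cells gave 1.28, 1.57 and 0.69, and NK cells of IR gave 1.62, and TMM factors gave 0.77 in control T cells. The reported values were 1.21, 1.53 and 0.90 for T cells, then 1.87, 1.42 and 0.65 for NK cells, of IR_HSO, IR and control.

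Single genes reversed in few settings. Tuba1b in control T cells, cycling against other, was -0.16 without cells over 3 times the median UMI number. Tuba1c in the Cd79 gate, IR_HSO against IR, was 0.86 without those cells and 0.43 thinned. IR against control in that gate, Tuba1c was 0.23 with the other total, 0.17 with TMM factors and 0.34 centred on the median gene, Tubb4b was 0.080, 0.021 and 0.15, and Tuba4a was 0.061 centred. The cause was not tested. No paired analysis was possible because each group has 1 library, and no library could be left out. Depth limits Tubb6, Tubb2a and cycling NK cells of control.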
